A study of Mus musculus with 9 samples.

Results

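The cortical hem is the strip of dorsal midline tissue next to the medial wall of the cerebral cortex. Its signals were followed through 10 genes: the Wnt ligands Wnt2b, Wnt3a, Wnt5a and Wnt8b, the BMP ligands Bmp4, Bmp6 and Bmp7, and the transcription factors Lmx1a, Msx1 and Msx2. They come from a list of known hem and roof plate genes, matched by symbol to the Ensembl identifiers of the counts table. All 10 were found among the 57010 genes of the table, and all 10 were among the 16951 genes with enough reads to be tested.

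Wnt ligands bind Frizzled receptors, and the canonical branch of the pathway acts through β-catenin with TCF and LEF factors on target genes. BMP ligands act through serine/threonine kinase receptors and SMAD proteins, and Msx genes are among the genes that BMP signals switch on. In the embryonic forebrain the hem lies between the cortex and the choroid plexus, is a source of Wnt and BMP proteins that pattern the medial cortex and the hippocampus, and gives rise to Cajal-Retzius cells.

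The study examined how loss of CNOT3, a subunit of the CCR4-NOT deadenylase complex that shortens the poly(A) tails of mRNAs, affects the developing mouse cortex. Cortical tissue was microdissected from single E12.5 embryos, and mRNA was sequenced as stranded paired-end libraries. The 9 libraries fall into 3 genotypes with 3 embryos each: Ctrl (labelled WT), Cnot3 cKO, and Cnot3;Trp53 dcKO. The cKO combines Emx1-Cre with floxed Cnot3 (lox/lox), and the dcKO carries floxed Trp53 (lox/lox) as well. Emx1-Cre is active in radial glial cells of the dorsal telencephalon and in the cells they give rise to, so a dissected cortex also holds cells outside its reach. Whether the Ctrl embryos carried Cre or a floxed allele is not given in the sources used here. Total counts per library were 26455779, 21193798 and 28869816 reads for Ctrl, 25946075, 24835674 and 25218324 reads for cKO, and 34196798, 45073349 and 23275370 reads for dcKO. Levels are given as CPM, read counts scaled to library size with TMM factors, always in the order of replicates 1, 2 and 3, and errors of group means are SDs over 3 embryos.

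The targeted genes were examined first. Cnot3 (ENSMUSG00000035632.17) stood at a mean of 111 CPM in Ctrl (lowest embryo 101 CPM, n = 3), 14.7, 17.2 and 14.4 CPM in the cKO embryos and 7.22, 45.3 and 19.0 CPM in the dcKO embryos. Every mutant embryo lay below every Ctrl embryo, and dcKO replicate 2 kept the most Cnot3 of the 6 mutant embryos. Cnot3 in cKO against Ctrl had a log2 fold change of −2.85 (SE 0.52), with an adjusted p of 0.0602 in edgeR and 1.06e-05 in DESeq2. Cnot3 in dcKO against Ctrl had a log2 fold change of −2.21 (SE 0.51), with an adjusted p of 0.0654 in edgeR and 0.00137 in DESeq2. Trp53 (ENSMUSG00000059552.14), which encodes p53, stood at 245, 261 and 221 CPM in the Ctrl embryos, 163, 164 and 165 CPM in the cKO embryos and 14.8, 104 and 20.6 CPM in the dcKO embryos. It was lowest in dcKO, where replicate 2 again kept several times the level of the other 2 embryos. Its log2 fold change in dcKO against Ctrl was −2.38 (SE 0.60), with an edgeR adjusted p of 0.0700 and no adjusted p from DESeq2. The library of dcKO replicate 2 also differed from the rest in a subpallial gene, Gsx2, which had 2.30 CPM there and no reads in the other 8 embryos. The fold changes of the hem genes in dcKO are therefore given with and without this embryo, while summed levels of gene lists are given for each embryo.

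The cortex label was compared with markers of dorsal cortical progenitors. Emx1, a transcription factor of the dorsal telencephalon, stood at 80.1 ± 40.1 CPM in Ctrl, 20.1, 20.3 and 23.4 CPM in the cKO embryos and 7.82, 16.7 and 80.8 CPM in the dcKO embryos (Ctrl as mean and SD, n = 3). It had reads in all 9 embryos. Every mutant embryo lay below every Ctrl embryo except dcKO replicate 3, which lay within the Ctrl range. Subpallial markers had a summed level over 10 genes (1 tested) of 1.47, 1.28 and 1.56 CPM in Ctrl, 2.68, 4.52 and 2.38 CPM in cKO and 2.24, 8.57 and 1.78 CPM in dcKO, above every Ctrl embryo in all 6 mutant embryos and highest in dcKO replicate 2, and the most abundant of them was Lhx6 at a mean of 1.79 CPM. Ctrl replicate 3 had the lowest level of Wnt2b, Wnt3a, Wnt5a, Bmp6 and Lmx1a of all 9 embryos, with 2 reads for Wnt3a.

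Hem genes were higher in cKO cortex for a subset of the list. Wnt2b, Wnt3a, Bmp6, Lmx1a and Msx2 were each higher in all 3 cKO embryos than in any Ctrl embryo, with group means from 3.82 to 6.35 times those of Ctrl. Bmp7 went the other way, with every cKO embryo below every Ctrl embryo at 0.424 times the Ctrl mean. Wnt5a, Wnt8b, Bmp4 and Msx1 overlapped between the genotypes. The same separation, all embryos above, was found for 25.5% of all tested genes and, all embryos below, for 27.2%, beside 5 and 1 of the 10 hem genes. The call used by the study, an adjusted p under 0.05 with more than a 2-fold change, was met by 5 hem genes in DESeq2 (Wnt2b, Bmp6, Lmx1a and Msx2 higher and Bmp7 lower), where 8.19% of all tested genes met it. In edgeR 0 of the 10 met it, against 0.0118% of all tested genes, and 6 of the 10 had an unadjusted p under 0.05, beside 4102 of all 16951. limma voom called 2679 of all tested genes and 5 hem genes, which were Wnt2b, Wnt3a, Bmp6, Lmx1a and Bmp7. The median log2 fold change of the 10 genes was 1.24, beside 0.00 for all tested genes, and 8 of the 10 were above 0. In whole cortex, more hem cells and more RNA of these genes per cell cannot be told apart.

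**Figure D1:**
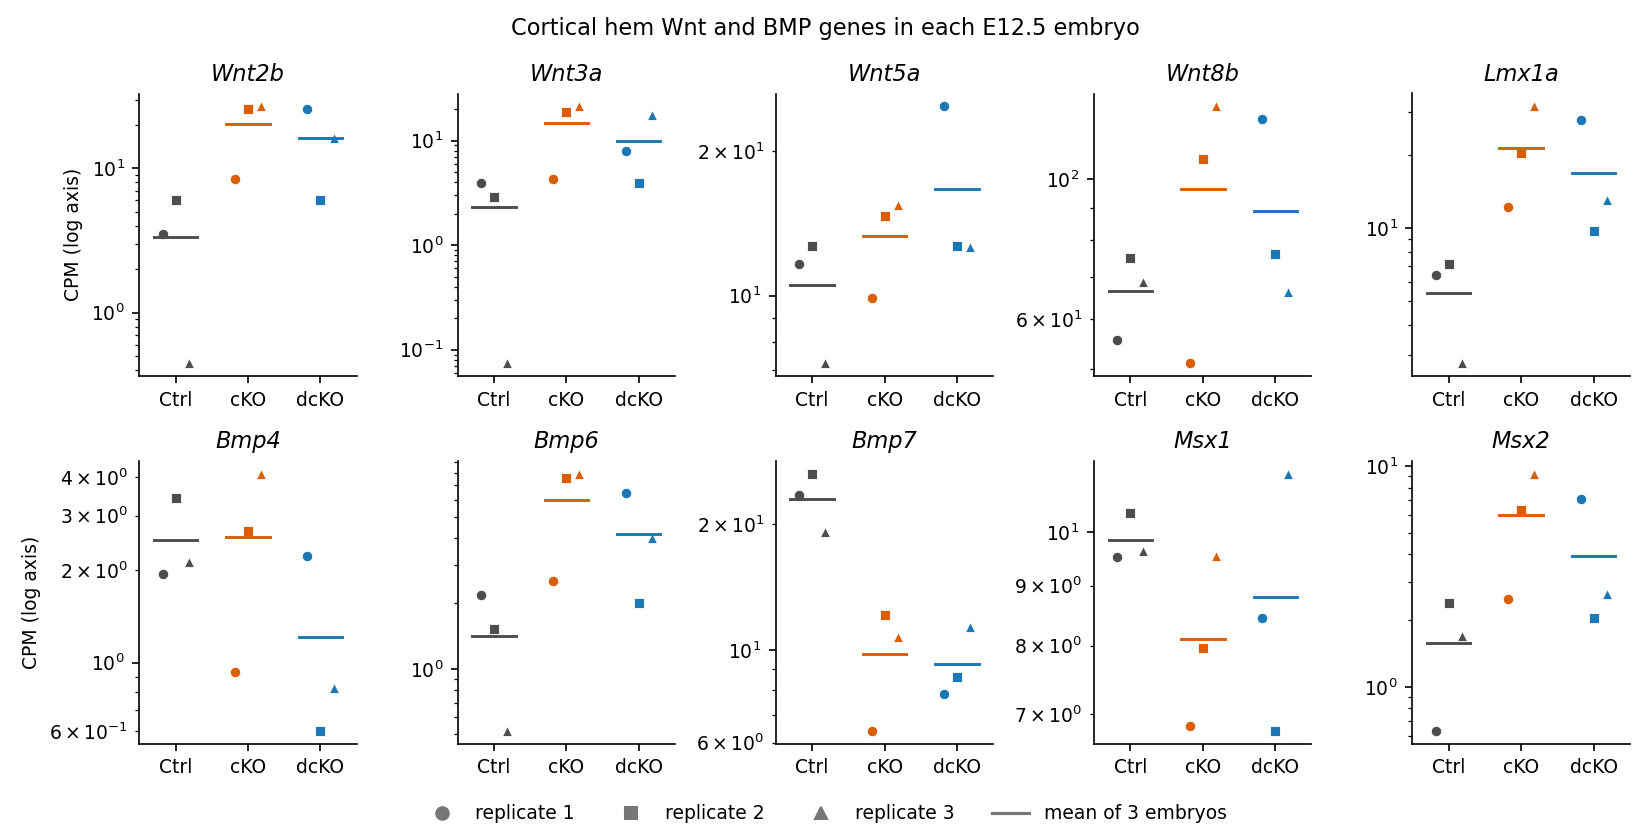
Level of each hem gene (CPM, log axis) in the 3 embryos of each genotype; symbols mark replicates 1, 2 and 3 and lines mark the mean of 3 embryos. Lmx1a and Wnt2b lie above every Ctrl embryo in all 6 mutant embryos, and Bmp7 lies below every Ctrl embryo in all 6.

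Wnt2b, a secreted Wnt ligand of the hem and roof plate (ENSMUSG00000027840.6), stood at 3.49, 6.03 and 0.445 CPM in the Ctrl embryos, 8.40, 25.9 and 26.9 CPM in the cKO embryos and 25.9, 6.07 and 16.3 CPM in the dcKO embryos. All mutant embryos lay above all Ctrl embryos, although dcKO replicate 2 exceeded Ctrl replicate 2 only by 6.07 against 6.03 CPM. Group means were 3.32 ± 2.80 CPM in Ctrl, 20.4 ± 10.4 CPM in cKO and 16.1 ± 9.92 CPM in dcKO (SD, n = 3 each). Wnt2b in cKO against Ctrl had a log2 fold change of 2.63 (SE 0.83), with an adjusted p of 0.101 in edgeR and 0.00599 in DESeq2. The DESeq2 call ended without cKO replicate 2 (adjusted p = 0.0616) or cKO replicate 3 (adjusted p = 0.0657). Wnt2b in dcKO against Ctrl had a log2 fold change of 2.29 (SE 0.82), with an adjusted p of 0.126 in edgeR and 0.0192 in DESeq2. Without Ctrl replicate 2 the values were 3.38 in cKO and 3.03 in dcKO, and GC-content offsets gave 2.96 in dcKO. Leaving out dcKO replicate 2 gave a log2 fold change of 2.68 and an adjusted p of 0.0537 in edgeR and 0.0427 in DESeq2. With all other embryos kept, the DESeq2 call in dcKO ended without Ctrl replicate 1 (adjusted p = 0.0808), Ctrl replicate 3 (adjusted p = 0.0519), dcKO replicate 1 (adjusted p = 0.205) or dcKO replicate 3 (adjusted p = 0.0840).

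Wnt3a, the hem ligand needed for growth of the hippocampus (ENSMUSG00000009900.8), stood at 3.96, 2.91 and 0.0742 CPM in the Ctrl embryos, 4.26, 18.6 and 21.3 CPM in the cKO embryos and 8.01, 3.94 and 17.6 CPM in the dcKO embryos. Levels of cKO replicates 2 and 3 and dcKO replicate 3 were several times those of any Ctrl embryo, while cKO replicate 1 was close to Ctrl replicate 1. Every cKO embryo lay above Ctrl, and in dcKO replicate 2 alone overlapped Ctrl, by 3.94 against 3.96 CPM. With no TMM factors all dcKO embryos lay above Ctrl. Wnt3a in cKO against Ctrl had a log2 fold change of 2.67 (SE 1.02), with an adjusted p of 0.150 in edgeR and 0.101 in DESeq2. DESeq2 called it higher without Ctrl replicate 3 (log2 fold change 2.13, adjusted p = 0.0374) or without cKO replicate 1 (log2 fold change 3.14, adjusted p = 0.0312). Without Ctrl replicate 1 the cKO value in edgeR was 3.33. Wnt3a in dcKO against Ctrl had a log2 fold change of 2.09 (SE 1.00), with an adjusted p of 0.223 in edgeR and 0.215 in DESeq2. The value without dcKO replicate 2 was 2.47, with an edgeR adjusted p of 0.129. With each embryo left out in turn it ran from 1.38 (without dcKO replicate 3) to 2.74 (without Ctrl replicate 1), and leaving out Ctrl replicate 3 also lowered it.

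Wnt5a, which signals largely outside the β-catenin branch (ENSMUSG00000021994.16), stood at 11.7, 12.7 and 7.23 CPM in the Ctrl embryos, 9.90, 14.6 and 15.4 CPM in the cKO embryos and 24.8, 12.7 and 12.6 CPM in the dcKO embryos. The highest level was in dcKO replicate 1 and the lowest in Ctrl replicate 3, and the genotypes overlapped. Wnt5a in cKO against Ctrl had a log2 fold change of 0.34 (SE 0.35), with an adjusted p of 0.588 in edgeR and 0.548 in DESeq2. Wnt5a in dcKO against Ctrl had a log2 fold change of 0.67 (SE 0.35), with an adjusted p of 0.262 in edgeR and 0.182 in DESeq2. In limma voom it was 0.9998 with an adjusted p of 0.0271, not called because of the fold limit. Without dcKO replicate 1 the edgeR value in dcKO was 0.28, and without dcKO replicate 2 it was 0.83. With no TMM factors all dcKO embryos lay above all Ctrl embryos.

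Wnt8b, a Wnt ligand of the medial cortical wall and the most abundant of the 10 genes (ENSMUSG00000036961.6), stood at 55.6, 74.9 and 68.6 CPM in the Ctrl embryos, 51.1, 108 and 130.1 CPM in the cKO embryos and 124, 76.1 and 66.2 CPM in the dcKO embryos. The highest levels were in cKO replicates 2 and 3 and in dcKO replicate 1. The remaining cKO embryo lay below all Ctrl embryos, and the other 2 dcKO embryos lay near the Ctrl values. Wnt8b in cKO against Ctrl had a log2 fold change of 0.54 (SE 0.34), with an adjusted p of 0.366 in edgeR and 0.314 in DESeq2. Wnt8b in dcKO against Ctrl had a log2 fold change of 0.42 (SE 0.34), with an adjusted p of 0.468 in edgeR and 0.414 in DESeq2. The dcKO value was 0.11 without dcKO replicate 1, 0.51 without replicate 2 and 0.59 without replicate 3.

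Among the BMP ligands, Bmp6 (ENSMUSG00000039004.7) stood at 2.19, 1.53 and 0.519 CPM in the Ctrl embryos, 2.54, 7.59 and 7.90 CPM in the cKO embryos and 6.45, 2.02 and 4.01 CPM in the dcKO embryos. As for Wnt2b and Wnt3a, cKO replicates 2 and 3 were the highest and Ctrl replicate 3 the lowest. All cKO embryos lay above Ctrl, whereas dcKO replicate 2 lay within the Ctrl range. Bmp6 in cKO against Ctrl had a log2 fold change of 2.09 (SE 0.65), with an adjusted p of 0.0992 in edgeR and 0.0126 in DESeq2. DESeq2 no longer called it without Ctrl replicate 2 (adjusted p = 0.0639), Ctrl replicate 3 (adjusted p = 0.0748), cKO replicate 2 (adjusted p = 0.101) or cKO replicate 3 (adjusted p = 0.115). Bmp6 in dcKO against Ctrl had a log2 fold change of 1.56 (SE 0.64), with an adjusted p of 0.169 in edgeR and 0.0719 in DESeq2. Without dcKO replicate 2 it was called by DESeq2 (log2 fold change 1.89, adjusted p = 0.0174), likewise without dcKO replicate 3 (log2 fold change 1.63, adjusted p = 0.0480). GC-content offsets gave a dcKO value of 2.42. The edgeR value was lower, at 1.10, without dcKO replicate 1 and, at 1.15, without Ctrl replicate 3. Exons of Bmp6 overlap those of Txndc5 on the opposite strand, and whether the counting used strand is not given in the sources used here. Txndc5 stood at 151, 154 and 146 CPM in the Ctrl embryos, 103, 112 and 111 CPM in the cKO embryos and 92.6, 90.1 and 119.8 CPM in the dcKO embryos, below Ctrl in every mutant embryo. Whether reads of Txndc5 were counted for Bmp6 was not tested.

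Bmp7, a BMP ligand of the roof plate and the meninges (ENSMUSG00000008999.8), stood at 23.5, 26.4 and 19.2 CPM in the Ctrl embryos, 6.40, 12.1 and 10.8 CPM in the cKO embryos and 7.85, 8.60 and 11.3 CPM in the dcKO embryos. All 6 mutant embryos lay below all 3 Ctrl embryos. Group means were 23.0 ± 3.64 CPM in Ctrl, 9.76 ± 2.98 CPM in cKO and 9.26 ± 1.83 CPM in dcKO (SD, n = 3 each). Bmp7 in cKO against Ctrl had a log2 fold change of −1.24 (SE 0.30), with an adjusted p of 0.0662 in edgeR and 0.00244 in DESeq2. This DESeq2 call ended without Ctrl replicate 2 (adjusted p = 0.0556) and, on the fold limit, without cKO replicate 1 (log2 fold change −0.98, adjusted p = 0.0330). Bmp7 in dcKO against Ctrl had a log2 fold change of −1.32 (SE 0.30), with an adjusted p of 0.0649 in edgeR and 0.00132 in DESeq2. DESeq2 called the dcKO decrease with any single embryo left out, and without dcKO replicate 2 edgeR called it too (log2 fold change −1.27, adjusted p = 0.0308), as it did without dcKO replicate 3 (log2 fold change −1.48, adjusted p = 0.00352). With GC-content offsets the dcKO value was −0.82 (edgeR adjusted p = 0.122), less than a 2-fold change. Markers of meningeal fibroblasts and mesenchyme (12 of 12 tested, Col3a1 the most abundant) were summed, since the meninges also make Bmp7. They gave 899.6, 967 and 897 CPM in Ctrl, 558, 776 and 515 CPM in cKO and 383, 436 and 560.1 CPM in dcKO, with every mutant embryo below every Ctrl embryo, as for Bmp7. DESeq2 called Col1a1, Col1a2 and Col3a1 lower in dcKO and 0 in cKO (edgeR 0, 1 at an unadjusted p under 0.05), with median log2 fold changes of 0.00 in cKO and −0.36 in dcKO. Their part in the Bmp7 result was not tested.

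Bmp4, a BMP ligand of the dorsal midline (ENSMUSG00000021835.16), stood at 1.94, 3.42 and 2.11 CPM in the Ctrl embryos, 0.930, 2.66 and 4.10 CPM in the cKO embryos and 2.21, 0.600 and 0.827 CPM in the dcKO embryos. Levels were low in all embryos, and the genotypes overlapped. Bmp4 in cKO against Ctrl had a log2 fold change of 0.04 (SE 0.65), with an adjusted p of 0.977 in edgeR and 0.958 in DESeq2. The sign of that value was not stable, since limma voom gave −0.65. Bmp4 in dcKO against Ctrl had a log2 fold change of −1.03 (SE 0.66), with an adjusted p of 0.354 in edgeR and 0.324 in DESeq2. Only dcKO replicate 1 lay within the Ctrl range, and without it the value was −1.80; without dcKO replicate 2 it was −0.70. Genes on the opposite strand that overlap Bmp4 (Gm15217) and Wnt5a (Gm2670) had at most 0.504 and 0.295 CPM in any embryo.

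Lmx1a, a LIM homeodomain factor that specifies the roof plate and hem (ENSMUSG00000026686.15), stood at 6.40, 7.10 and 2.78 CPM in the Ctrl embryos, 12.2, 20.4 and 31.6 CPM in the cKO embryos and 27.8, 9.68 and 13.0 CPM in the dcKO embryos. Every mutant embryo lay above every Ctrl embryo, and cKO replicate 3 and dcKO replicate 1 were the highest. Group means were 5.43 ± 2.32 CPM in Ctrl, 21.4 ± 9.76 CPM in cKO and 16.8 ± 9.64 CPM in dcKO (SD, n = 3 each). Lmx1a in cKO against Ctrl had a log2 fold change of 1.98 (SE 0.52), with an adjusted p of 0.0719 in edgeR and 0.00229 in DESeq2. The DESeq2 call ended without cKO replicate 3 (adjusted p = 0.0568). Lmx1a in dcKO against Ctrl had a log2 fold change of 1.63 (SE 0.51), with an adjusted p of 0.0970 in edgeR and 0.0131 in DESeq2. Here DESeq2 no longer called it without Ctrl replicate 3 (adjusted p = 0.0794) or dcKO replicate 1 (adjusted p = 0.183). Without dcKO replicate 2 both tools called it, with a log2 fold change of 1.91 and an adjusted p of 0.0361 in edgeR and 0.00157 in DESeq2. Both tools also called it without dcKO replicate 3, with an edgeR log2 fold change of 1.79 and an adjusted p of 0.0216 in edgeR and 0.00136 in DESeq2.

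Msx1 and Msx2, related homeodomain factors downstream of BMP signals, had different patterns. Msx2 (ENSMUSG00000021469.10) stood at 0.631, 2.40 and 1.71 CPM in the Ctrl embryos, 2.503, 6.37 and 9.24 CPM in the cKO embryos and 7.08, 2.04 and 2.65 CPM in the dcKO embryos. The cKO embryos lay above all Ctrl embryos, by little in replicate 1, and dcKO replicate 2 lay within the Ctrl range. Msx2 in cKO against Ctrl had a log2 fold change of 1.94 (SE 0.68), with an adjusted p of 0.125 in edgeR and 0.0276 in DESeq2. DESeq2 no longer called it without Ctrl replicate 1 (adjusted p = 0.170), Ctrl replicate 3 (adjusted p = 0.0795), cKO replicate 2 (adjusted p = 0.117) or cKO replicate 3 (adjusted p = 0.223). Msx2 in dcKO against Ctrl had a log2 fold change of 1.32 (SE 0.67), with an adjusted p of 0.247 in edgeR and 0.152 in DESeq2. Without dcKO replicate 2 it was 1.63, and without dcKO replicate 1 it was 0.57. Msx1 (ENSMUSG00000048450.11) stood at 9.51, 10.4 and 9.64 CPM in the Ctrl embryos, 6.83, 7.96 and 9.54 CPM in the cKO embryos and 8.45, 6.77 and 11.2 CPM in the dcKO embryos, and the genotypes overlapped. Its log2 fold changes were −0.28 (SE 0.27) in cKO and −0.16 (SE 0.27) in dcKO, with edgeR adjusted p-values of 0.567 and 0.746. The dcKO value was −0.011 without dcKO replicate 2, and both turned positive with offsets for GC content (0.10 and 0.61).

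Cortices lacking both Cnot3 and Trp53 were compared with the same 3 Ctrl embryos. Wnt2b and Lmx1a were higher in all 3 dcKO embryos than in any Ctrl embryo, at 4.85 and 3.10 times the Ctrl mean, and Bmp7 was lower in all 3, at 0.402 times. The other 7 hem genes overlapped between the genotypes. Separation upwards was seen for 12.1% of all tested genes and downwards for 12.7%, beside 2 and 1 of the 10 hem genes. DESeq2 called those 3 hem genes, where it called 7.92% of all tested genes. edgeR called 0 of the 10, as it called 0% of all tested genes, with 4 hem genes and 4251 of all 16951 genes at an unadjusted p under 0.05. limma voom called 3516 of all tested genes and 4 hem genes, namely Lmx1a, Bmp7, Wnt2b and Bmp6. The median log2 fold change of the 10 genes was 0.99, beside 0.07 for all tested genes, and 7 of the 10 were above 0. Without dcKO replicate 2, edgeR called 2 hem genes (Lmx1a and Bmp7) and 1558 of 17529 tested genes. DESeq2 then called 4 hem genes (Lmx1a, Bmp7, Wnt2b and Bmp6) and 2164 genes. Without dcKO replicate 3, edgeR called the same 2 hem genes and 3317 of 17508 genes, and DESeq2 called 3 hem genes (Lmx1a, Bmp7 and Bmp6) and 3724 genes. Without dcKO replicate 1, edgeR called 0 hem genes and 0 genes (2741 at an unadjusted p under 0.05), and DESeq2 called Bmp7 alone of the 10 and 509 of 17461 genes.

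**Figure D2:**
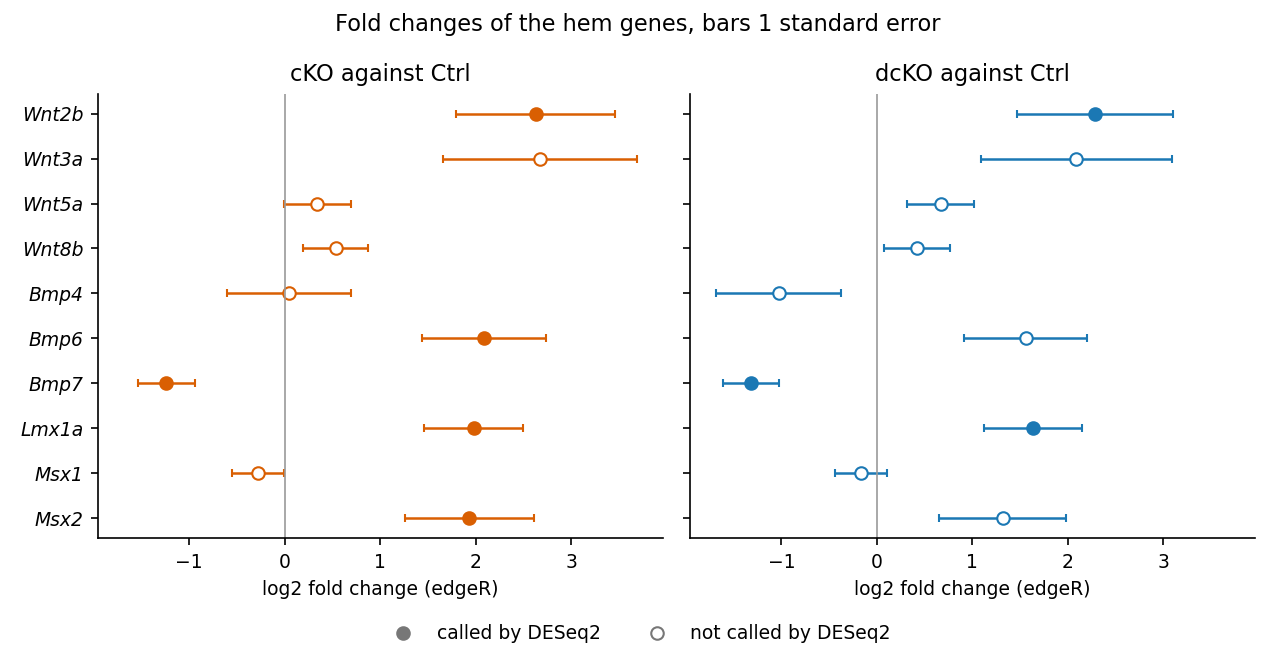
Log2 fold change of each hem gene from edgeR with bars of 1 standard error, for cKO and dcKO against Ctrl (3 embryos per genotype, Ctrl shared); filled points are called by DESeq2. Lmx1a and Wnt2b are called above 0 and Bmp7 below 0 in both comparisons.

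The mutants, which differ by the floxed Trp53 alleles, were also compared with each other. Cnot3 loss also differed, with 45.3 CPM in dcKO replicate 2 beside 14.7, 17.2 and 14.4 CPM in the cKO embryos. No dcKO embryo shares a label number with a cKO embryo. The part of Trp53 cannot be told apart from these differences. The groups overlapped for all 10 hem genes. No tool among edgeR, DESeq2 and limma voom called any of them: 0 of 10 in each, with 0 at an unadjusted p under 0.05 in edgeR. Of all tested genes, edgeR called 0.0177% and DESeq2 0.348%, and the 2 genotypes did not overlap upwards for 2.80% and downwards for 4.44%. The median log2 fold change of the hem genes was −0.34, beside 0.04 for all genes, and edgeR adjusted p-values ran from 0.974 to 0.999. In edgeR with all embryos, Bmp4 had the largest difference, −1.07 (SE 0.66). For Msx2 it was −0.62 (SE 0.65), for Wnt3a −0.58 (SE 0.94) and for Bmp6 −0.53 (SE 0.62). Lmx1a and Wnt2b differed by −0.35 (SE 0.49) and −0.34 (SE 0.77), and Bmp7 by −0.08 (SE 0.29). Wnt5a and Msx1 were the 2 genes above 0, at 0.33 (SE 0.35) and 0.12 (SE 0.27). The sign of this comparison was not the same in each fit for 9 of the 10 genes, Wnt3a being the exception, and limma voom gave 0.43 for Lmx1a. The largest difference in limma voom was that of Wnt5a, at 0.86, and Bmp4 stood at 0.077 there. With dcKO replicate 2 left out, the edgeR value for Lmx1a was −0.07 and for Bmp4 −0.74. With each embryo left out in turn, it ran from −1.85 to −0.59 for Bmp4 and from −1.37 to −0.20 for Msx2. For Wnt3a the range was −1.32 to −0.21. The lowest values came without dcKO replicate 1 for Bmp4 and Msx2, and without dcKO replicate 3 for Wnt3a. For each of the 6 separations of the hem genes between cKO and Ctrl, and each of the 3 between dcKO and Ctrl, the exact two-sided permutation test over embryos gave p = 0.1, the smallest that 3 against 3 allows.

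Levels can be set side by side between genes once they are divided by exon length. In Ctrl the order of mean levels ran from Wnt8b (19.1 CPM per kb) through Bmp7 (5.73), Msx1 (3.18), Lmx1a (1.60), Wnt5a (1.34), Bmp4 (1.11), Wnt3a (0.838), Wnt2b (0.791) and Msx2 (0.482) to Bmp6 (0.362). Wnt8b, Bmp7 and Msx1 each stood apart from the next gene by more than the SDs over embryos, and from Lmx1a downwards neighbours differed by less than the larger of their SDs. In cKO, Wnt8b remained the most abundant at 27.7 CPM per kb, and Lmx1a (6.29), Wnt3a (5.32) and Wnt2b (4.86) came next, above Bmp7 (2.43). In dcKO the order of the first 4 was Wnt8b (25.5), Lmx1a (4.95), Wnt2b (3.83) and Wnt3a (3.56). Wnt2b and Wnt3a differed by less than the SD over embryos in each genotype, as did Lmx1a from both of them in cKO and dcKO.

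The embryos of a genotype differed among themselves, and the hem genes largely moved together across embryos. The 10 genes summed to 118.9, 148 and 112 CPM in Ctrl, 105, 224 and 267 CPM in cKO and 243, 128 and 156 CPM in dcKO. Replicates 2 and 3 of cKO and replicates 1 and 3 of dcKO were above all Ctrl embryos, while cKO replicate 1 was below all of them. Wnt8b alone made the largest part of this sum in each embryo, at 55.6, 74.9 and 68.6 CPM in Ctrl. A mean of the standardized log2 levels of the 10 genes gave −0.31, 0.12 and −0.95 in Ctrl, −0.61, 0.58 and 0.91 in cKO and 0.68, −0.54 and 0.12 in dcKO. It was lowest in Ctrl replicate 3, and each mutant genotype held embryos on both sides of 0. In each embryo the genes share its genotype and dissection. Over the 9 embryos, the correlation of a gene with the mean of the other 9 genes was highest for Bmp6 (r = 0.828) and Lmx1a (r = 0.804). It was lowest for Bmp7 (r = −0.297) and Msx1 (r = 0.0886). With each genotype's mean subtracted, all 10 correlations were positive, from 0.513 for Msx1 to 0.923 for Lmx1a, and Bmp7 reached 0.611. These values are descriptions of 9 libraries.

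Apart from the replicate numbers, the labels give 3 control embryos a number in common with a mutant embryo, and what the number stands for is not given in the sources used here. Between Ctrl replicate 1 and cKO replicate 2, 8 hem genes were higher in the mutant and 2 lower (Bmp7 and Msx1). The same counts and the same 2 lower genes were found between Ctrl replicate 2 and cKO replicate 3. Between Ctrl replicate 3 and dcKO replicate 3, 7 were higher and 3 lower (Wnt8b, Bmp4 and Bmp7). These are descriptions of 3 pairs, and the same counts over all genes were not taken.

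The summed level of other roof plate and hem genes had a similar pattern over embryos, while single genes went both ways. A list of 19 such genes outside the 10, of which 15 were tested and 9 also stand in pathway lists, summed to 337, 325 and 246 CPM in Ctrl, 273, 498 and 588 CPM in cKO and 666, 361 and 339.8 CPM in dcKO, with a median log2 fold change of 0.65 in cKO and 0.23 in dcKO. The sum followed the 10 hem genes over embryos (r = 0.901 over 9 embryos, 0.890 within genotypes). In each mutant 8 of the 15 had a log2 fold change above 0. DESeq2 called 3 of the 15 higher in cKO (Bmp5, Rspo2 and Rspo3) and 3 in dcKO (Rspo2, Rspo3 and Wls), and none lower. Rspo3, a secreted protein that raises the response to Wnt, stood at 14.8, 23.3 and 11.5 CPM in the Ctrl embryos, 33.4, 63.9 and 105 CPM in the cKO embryos and 119.7, 48.4 and 28.7 CPM in the dcKO embryos. Its level was above every Ctrl embryo in all 6 mutant embryos, and DESeq2 gave adjusted p-values of 0.00323 in cKO and 0.00384 in dcKO. Wls, the carrier that Wnt proteins need for secretion and the most abundant gene of the list, stood at 61.3, 68.4 and 69.1 CPM in the Ctrl embryos, 85.0, 120.4 and 156 CPM in the cKO embryos and 214, 104 and 89.2 CPM in the dcKO embryos. It was likewise above every Ctrl embryo in all 6, with DESeq2 adjusted p-values of 0.0699 and 0.0253. Axin2, also among the most abundant genes of the list, was below every Ctrl embryo in all mutant embryos but cKO replicate 3. Gdf7 and Wnt1 had no reads in any embryo.

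Outside all lists, the 5 genes whose levels were most like the mean of the hem genes were Lix1l (r = 0.957 over 9 embryos), Tmem39a (0.890), Htr2c (0.881), BC048679 (0.876) and Egln3 (0.874). They were picked as the highest of the tested genes outside all lists, so the size of r is fixed by the choice. Htr2c, a serotonin receptor abundant in choroid plexus, had no reads in Ctrl and stood at 0, 0.814 and 0.782 CPM in cKO and 4.07, 0 and 0.207 CPM in dcKO, where dcKO replicate 1 was the highest.

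Choroid plexus genes, which mark the tissue next to the hem, had a higher summed level in the mutants. The 12 marker genes, of which 8 were tested, summed to 5.26, 6.49 and 6.49 CPM in Ctrl, 19.5, 38.1 and 72.9 CPM in cKO and 114, 16.6 and 19.1 CPM in dcKO. All mutant embryos lay above all Ctrl embryos, and cKO replicate 3 and dcKO replicate 1, the highest for Lmx1a, were also the highest here. DESeq2 called 5 of the 8 higher in both mutants (Ttr, Clic6, Folr1, Kcne2 and Otx2), and Aqp1 lower in dcKO, with a median log2 fold change of 3.42 in cKO and 3.43 in dcKO, the same with Ttr at its lower bound. Ttr, the most abundant marker, had no reads in Ctrl and stood at 5.79, 10.8 and 32.4 CPM in cKO and 56.0, 3.22 and 6.16 CPM in dcKO. Against 3 reads pooled over the Ctrl libraries it was at least 379-fold higher in cKO and at least 534-fold higher in dcKO, counting error only. Both bounds use reads pooled over the embryos of a genotype. Most of these reads came from cKO replicate 3 and dcKO replicate 1, so each bound would be lower without that embryo. That the dcKO bound exceeds the cKO bound depends on dcKO replicate 1. Cldn2 also had no reads in Ctrl. edgeR called 0 of the 8 in both mutants, with 5 in cKO and 6 in dcKO at an unadjusted p under 0.05, and it called 0 genes of each other list in either comparison with Ctrl. The sum followed the hem genes with r = 0.752 over 9 embryos and 0.742 within genotypes. Their part in the hem gene results was not tested.

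**Figure D3:**
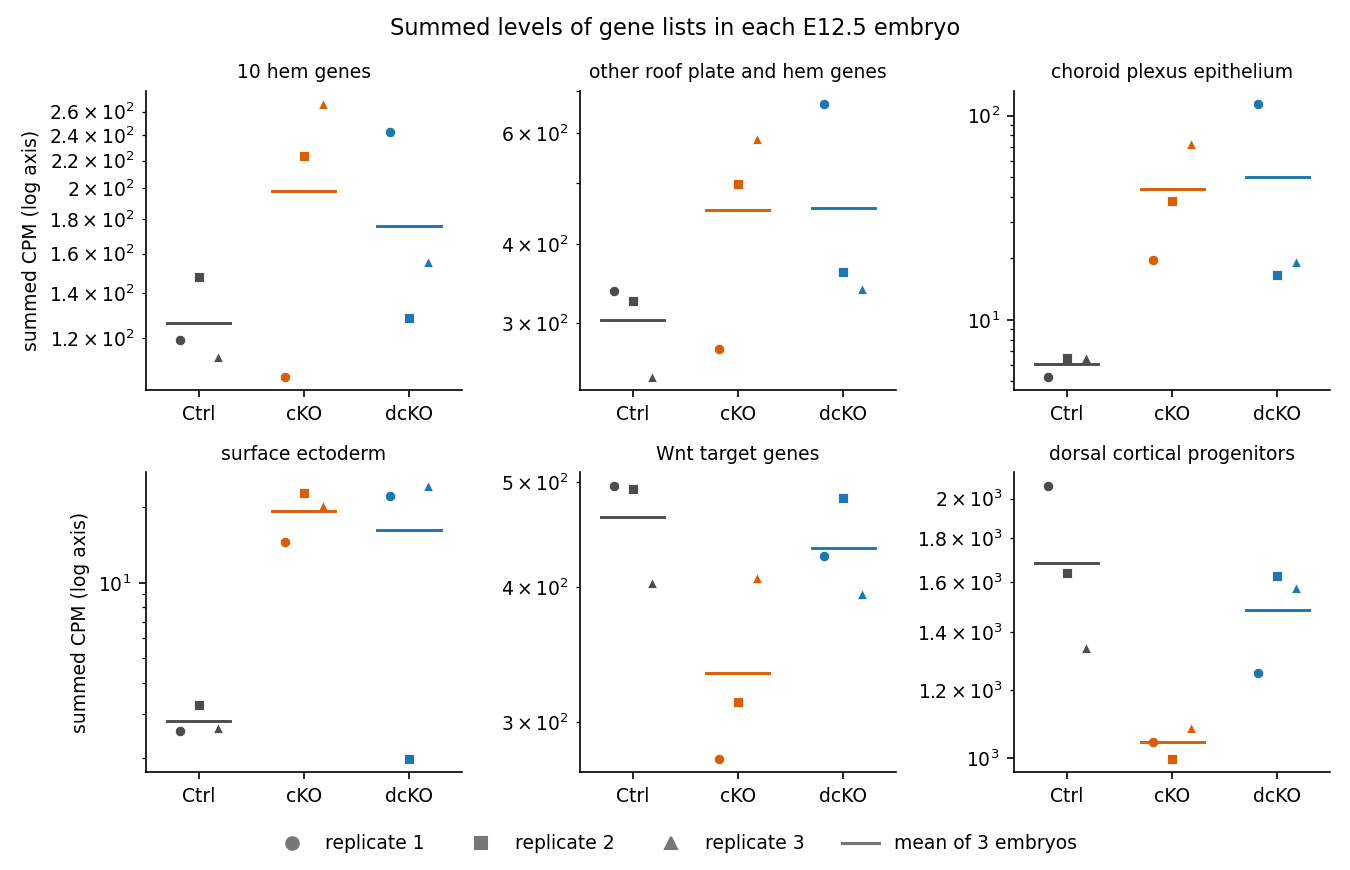
Summed level (CPM, log axis) of 6 gene lists in each embryo, symbols for replicates 1, 2 and 3 and lines for the mean of 3 embryos. The choroid plexus sum lies above Ctrl in all 6 mutant embryos. The sum of the 10 hem genes, of which Wnt8b is the most abundant, overlaps between genotypes.

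Surface ectoderm markers (4 of 7 tested, Krt18 the most abundant) summed to 2.57, 3.27 and 2.63 CPM in Ctrl, 14.6, 22.9 and 20.3 CPM in cKO and 22.3, 1.99 and 24.3 CPM in dcKO, and the one mutant embryo as low as Ctrl was dcKO replicate 2, which was also the lowest of the 6 mutant embryos for Wnt2b, Wnt3a, Bmp6, Lmx1a and Msx2. DESeq2 called Epcam, Krt8 and Krt18 higher in both mutants (edgeR 0 of 4, with 3 in cKO and 3 in dcKO at an unadjusted p under 0.05), with median log2 fold changes of 2.88 in cKO and 2.83 in dcKO. Trp63, a defining gene of the epidermis, stood at 0.379, 0.409 and 0 CPM in Ctrl and at 0 in all 6 mutant embryos. Which cells the Epcam, Krt8 and Krt18 reads came from, and their part in the hem gene results, were not tested.

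Progenitor markers of the dorsal cortex had a lower summed level in cKO. The 10 genes summed to 2069.9, 1639.7 and 1344 CPM in Ctrl, 1046, 999 and 1085 CPM in cKO and 1254, 1628 and 1574 CPM in dcKO, with all cKO embryos below all Ctrl embryos, dcKO overlapping Ctrl, and median log2 fold changes of −0.76 and −0.15. DESeq2 called Lhx2, Emx1, Hes5 and Dmrta2 lower in cKO (edgeR 0 of 10, 5 at an unadjusted p under 0.05) and 0 of 10 in dcKO (edgeR 0, 0 at an unadjusted p under 0.05). Lhx2, the most abundant of them and a factor known to hold cortical cells back from hem fate, stood at 881, 674 and 481 CPM in the Ctrl embryos, 269.6, 275 and 313 CPM in the cKO embryos and 337, 395 and 622 CPM in the dcKO embryos. The part of these progenitors in the hem gene results was not tested.

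Wnt ligands outside the 10 gave a mixed picture. Of 15 such ligands 6 were tested, and the list summed to 245, 219.6 and 169 CPM in Ctrl, 119.1, 147 and 111 CPM in cKO and 67.3, 102 and 133 CPM in dcKO, with every mutant embryo below every Ctrl embryo. The most abundant was Wnt7b, a ligand of the cortical wall, which stood at 179, 159 and 119.9 CPM in the Ctrl embryos, 79.8, 98.0 and 73.5 CPM in the cKO embryos and 38.7, 67.9 and 83.0 CPM in the dcKO embryos and was called lower by DESeq2 in dcKO. DESeq2 called 0 in cKO (edgeR 0, 2 at an unadjusted p under 0.05), and the median log2 fold changes of 0.44 in cKO and 0.26 in dcKO were opposite in sign to the summed level. Wnt9a is among the genes of this list with the highest mean CPM and the largest mean fold change, and was picked out of these after its values were seen. It had a pattern over embryos close to that of the hem genes (r = 0.980), at 2.02, 2.20 and 0.667 CPM in the Ctrl embryos, 1.07, 5.85 and 7.23 CPM in the cKO embryos and 4.73, 1.32 and 3.39 CPM in the dcKO embryos.

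Wnt secretion and receptor genes (19 of 20 tested, Fzd3 the most abundant) summed to 1397, 1268 and 1167 CPM in Ctrl, 819, 869 and 1023 CPM in cKO and 1135, 1421 and 942 CPM in dcKO, with medians of −0.24 in cKO and −0.27 in dcKO. DESeq2 called Fzd1, Fzd2, Fzd9 and Ror2 lower in cKO, and Fzd9, Lrp5 and Ror2 lower and Wls higher in dcKO. Ror2, a receptor for Wnt5a, stood at 99.8, 92.6 and 57.0 CPM in the Ctrl embryos, 18.1, 23.8 and 26.1 CPM in the cKO embryos and 11.5, 26.7 and 43.9 CPM in the dcKO embryos, below Ctrl in all 6 mutant embryos. The 16 Wnt inhibitors (12 tested, Sfrp1 the most abundant) summed to 1197, 1027 and 976 CPM in Ctrl, 545, 568 and 546 CPM in cKO and 607, 1153 and 636 CPM in dcKO, with medians of −0.67 and −0.07, and DESeq2 called Sfrp1 and Znrf3 lower and Sfrp4 higher in cKO and 0 of 12 in dcKO (edgeR 0, 1 at an unadjusted p under 0.05). Canonical Wnt target genes (9 of 12 tested, Emx2 the most abundant) summed to 496, 493 and 403 CPM in Ctrl, 278, 313 and 408 CPM in cKO and 427, 484 and 394 CPM in dcKO, with medians of −0.69 and −0.46. Among these targets DESeq2 called Lef1 and Znrf3 lower in cKO, and 0 of 9 in dcKO (edgeR 0, 1 at an unadjusted p under 0.05). Several targets, Znrf3 among them, also stand in the list of Wnt inhibitors, so the sums of these lists are not separate observations. Emx2 also stands among the markers of dorsal cortical progenitors. Axin2, a feedback inhibitor induced by β-catenin, stood at 71.3, 68.4 and 51.5 CPM in the Ctrl embryos, 27.0, 37.2 and 53.9 CPM in the cKO embryos and 38.5, 43.6 and 48.2 CPM in the dcKO embryos, and cKO replicate 3 was the one mutant embryo within the Ctrl range.

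BMP and GDF ligands outside the 10 (7 of 13 tested, Bmp1 the most abundant) summed to 84.9, 84.4 and 76.6 CPM in Ctrl, 54.8, 56.9 and 57.8 CPM in cKO and 44.7, 63.7 and 78.1 CPM in dcKO, with medians of 0.48 in cKO and −0.30 in dcKO. DESeq2 called Bmp5 higher in cKO and 0 of 7 in dcKO (edgeR 0, 1 at an unadjusted p under 0.05). Bmp5, of the same subfamily as Bmp6 and Bmp7, stood at 2.48, 2.09 and 2.00 CPM in the Ctrl embryos, 3.65, 7.81 and 5.81 CPM in the cKO embryos and 5.90, 3.60 and 3.51 CPM in the dcKO embryos, above Ctrl in all 6 mutant embryos, the direction of Bmp6 and the reverse of Bmp7. BMP receptors and SMADs (10 of 10 tested, Smad5 the most abundant) summed to 1029.7, 1006 and 1018 CPM in Ctrl, 907, 942 and 946 CPM in cKO and 1101, 1444 and 814 CPM in dcKO, with medians of −0.07 and 0.15, and DESeq2 called the type II receptor Acvr2b lower in both mutants (log2 fold changes −1.95 and −1.21). The 8 BMP target genes (8 tested, Id4 the most abundant) summed to 858, 782 and 694 CPM in Ctrl, 678, 715 and 669 CPM in cKO and 928, 1249 and 795 CPM in dcKO, with medians of −0.10 and −0.01. In cKO DESeq2 called Id1 higher and Smad6 lower, and in dcKO 0 of 8 (edgeR 0, 1 at an unadjusted p under 0.05). Id1, a direct BMP target like Msx2, stood at 4.76, 4.65 and 3.67 CPM in the Ctrl embryos, 7.04, 18.4 and 11.9 CPM in the cKO embryos and 9.68, 5.43 and 10.2 CPM in the dcKO embryos, above Ctrl in all 6 mutant embryos. BMP antagonists (8 of 10 tested, Fstl1 the most abundant) summed to 312, 305 and 299 CPM in Ctrl, 280.3, 300.2 and 306 CPM in cKO and 324, 317 and 261 CPM in dcKO, with medians of −0.13 and −0.04, and DESeq2 called 0 of 8 in cKO (edgeR 0, 3 at an unadjusted p under 0.05) and Nbl1 lower in dcKO.

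The promoters of the hem genes were read for motifs of both pathways, since most of the genes moved together over embryos. RefSeq (GRCm38.p6) gave a promoter, from 250 bases before to 50 bases after the gene start, for 8 of the 10 genes, and Wnt5a and Bmp7 were not matched. The TCF/LEF motif TCAAAG was searched on both strands and found in 16.0% of 32851 promoters and in 0 of the 8. The SMAD1/5 motif GGCGCC, which reads the same on both strands, was found in 11.9% of the 32851 and in 2 of the 8, Wnt2b with 2 matches and Wnt3a with 1. GC content was 79.7% for Wnt2b and 86.3% for Wnt3a, beside a median of 52.7% for all promoters. The other 6 ranged from 48.3% (Wnt8b) to 70.0% (Msx1). A match describes these letters and is not evidence of a bound site. The 2 promoters that hold the motif lie on the minus strand, Wnt2b at chr3:104961660-104961959 and Wnt3a at chr11:59290702-59291001 of GRCm38.p6, and are given 5′ to 3′ with GGCGCC in capitals, together with that of Lmx1a on the plus strand at chr1:167689308-167689607, a gene called by DESeq2 in both mutants that holds neither motif.
Wnt2b: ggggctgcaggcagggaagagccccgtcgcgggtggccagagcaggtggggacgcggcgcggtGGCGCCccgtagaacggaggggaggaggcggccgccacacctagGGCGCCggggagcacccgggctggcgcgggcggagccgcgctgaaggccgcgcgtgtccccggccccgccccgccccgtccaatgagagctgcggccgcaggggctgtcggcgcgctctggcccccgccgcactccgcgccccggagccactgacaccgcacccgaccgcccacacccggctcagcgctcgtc
Wnt3a: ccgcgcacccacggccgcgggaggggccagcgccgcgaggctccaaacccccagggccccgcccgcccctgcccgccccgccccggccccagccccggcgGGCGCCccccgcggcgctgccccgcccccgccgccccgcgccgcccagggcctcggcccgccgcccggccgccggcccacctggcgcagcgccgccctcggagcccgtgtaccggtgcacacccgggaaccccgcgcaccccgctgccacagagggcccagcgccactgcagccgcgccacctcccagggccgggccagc
Lmx1a: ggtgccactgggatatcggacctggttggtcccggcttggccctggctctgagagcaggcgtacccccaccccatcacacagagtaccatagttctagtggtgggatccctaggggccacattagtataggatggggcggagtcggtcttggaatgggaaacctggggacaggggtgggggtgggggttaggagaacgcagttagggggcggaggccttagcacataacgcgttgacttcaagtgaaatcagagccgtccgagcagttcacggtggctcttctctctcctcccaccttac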

How the data were processed

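Cortical mRNA of 9 mouse embryos, 3 of each genotype, was analysed from 1 table of gene counts. Per the submitters' notes and the study's methods, the authors checked reads with FastQC, trimmed them with cutadapt, aligned them to mm39 with STAR and obtained the deposited counts per gene with featureCounts. Versions and the strand setting are not given in the sources used here.

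Groups came from the sample labels. Symbols, exon lengths and gene GC content came from GENCODE M21 (GRCm38), which named 52029 of 57010 genes. Its build differs from that of the counts, so its coordinates are not printed. GC content was known for 98.4% of the genes tested (80% was required), and promoters came from RefSeq (GRCm38.p6). Gene models were fitted with edgeR 4.0.16 in R 4.3.3 (quasi-likelihood test, TMM factors, genes kept by filterByExpr, all 9 embryos, genotype as the only term). P-values were adjusted by Benjamini-Hochberg over 16951 genes. A gene was called at an adjusted p under 0.05 with an absolute log2 fold change above 1. The standard error is the log2 fold change over the square root of F. DESeq2 1.42.0, the tool of the study, was run on the same genes and is given beside edgeR. The biological coefficient of variation was 0.399. Single levels were compared by exact two-sided permutation of embryos, and log2 CPM for scores and correlations had 0.5 reads added. Floors use 3 reads and cover counting error only. Tables were made with Python 3.11.15, NumPy 2.4.6 and pandas 2.3.3. The fitting scripts were tested on simulated data.

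Alternatives were RLE factors, DESeq2, limma 3.58.1 voom with sample weights, no filter, a filter of more than 10 reads in every embryo, only the 2 genotypes compared, each embryo left out, the replicate number as a block, GC-content offsets (loess span 0.3), both of these together, no fold limit, CPM with no TMM factors, and embryos that share a number in their labels. DESeq2 with each embryo left out was chosen after seeing the data. Genes named are the 10 hem genes, Cnot3 and Trp53, from each list the up to 4 with the highest mean CPM, the up to 3 with the largest mean fold change and any called, and the 5 genes outside all lists most like the hem genes. Other genes were named after their values were seen. The hem genes and the lists of pathway and marker genes were chosen with earlier results of these data known. The values of 1 marker gene are not reported here.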

Additional observations from a re-analysis of the deposited data

How the results depend on the processing

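Counts of called genes depended on the tool and on single embryos, and the cause was not tested. For cKO against Ctrl, edgeR called 2 genes, DESeq2 1389, limma voom 2679, edgeR with no filter 813, with only the 2 genotypes 2303, and with GC-content offsets 576. The hem genes called were 0 in edgeR, 5 in DESeq2, 5 in voom, 3 with no filter, 6 with the 2 genotypes and 3 with GC offsets. With 1 embryo left out, edgeR called 0 to 1539 genes and 0 to 4 hem genes, and DESeq2 544 to 2054 genes and 1 to 5 hem genes. For dcKO against Ctrl, edgeR called 0 genes, DESeq2 1342, voom 3516, no filter 692, the 2 genotypes 0 and GC offsets 10. The hem genes called were 0 in edgeR, 3 in DESeq2, 4 in voom, 3 with no filter, 0 with the 2 genotypes and 0 with GC offsets. With 1 embryo left out, edgeR called 0 to 3317 genes and 0 to 2 hem genes, and DESeq2 509 to 3724 genes and 1 to 4 hem genes. For dcKO against cKO, edgeR called 3 genes, DESeq2 59, voom 9, no filter 8, the 2 genotypes 0 and GC offsets 5. With 1 embryo left out, edgeR called 0 to 1197 genes and DESeq2 15 to 1481. Hem genes called were 0 in each of these fits.

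The replicate block (replicate number as a term) gave 0 genes in cKO and 0 between the mutants, with 0 hem genes in each comparison, and with GC offsets added the block gave 4 genes in cKO. Embryos with the same replicate number did not deviate together from their genotype means (mean r of −0.0859 over 9 pairs, 0 of them above 0.1). Pairs with different replicate numbers had a mean r of 0.0432 over 18 pairs, 6 of them above 0.1. Deviations sum to 0 within a genotype, so the means of both kinds of pair are not independent. These values gave no sign that the replicate numbers pair the embryos. The other number, which 3 Ctrl embryos share with a mutant embryo in the labels, was not tested in this way.

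Over the alternatives to edgeR with all embryos, each comparison had 179 values of the fold changes of the 10 hem genes. In cKO 141 kept their direction and their side of the threshold, 32 passed it in the same direction and 6 changed sign. In dcKO these numbers were 163, 14 and 2, and between the mutants 159, 0 and 20. Signs changed as follows, and the cause was not tested. In cKO, Bmp4 was −0.65 in voom and ran from −0.45 to 0.45 with 1 embryo left out, and Msx1 was 0.10 with GC offsets and 0.10 with the block and GC offsets. In dcKO, Msx1 was 0.61 and 0.62 under the same 2 settings. Between the mutants, voom gave 0.59 for Wnt2b, 0.55 for Wnt8b, 0.077 for Bmp4, 0.37 for Bmp6, 0.43 for Lmx1a and 0.43 for Msx2. GC offsets gave 0.023 for Wnt2b, 0.17 for Wnt8b and 0.27 for Bmp7, and with the block added 0.22 for Wnt8b and 0.26 for Bmp7. With 1 embryo left out, the range was −0.88 to 0.047 for Wnt2b, −0.079 to 0.49 for Wnt5a, −0.44 to 0.14 for Wnt8b, −0.32 to 0.10 for Bmp7, −0.92 to 0.027 for Lmx1a and −0.10 to 0.27 for Msx1. A filter of more than 10 reads in every embryo removed Wnt3a, which had 2 reads in Ctrl replicate 3. DESeq2 with 1 embryo left out was chosen after seeing the data.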

Other observations

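Markers of other cells that the dissection could hold were summed in the same way, and their part in the hem gene results was not tested. Cortical neuron markers (8 of 8 tested, Tubb3 the most abundant) summed to 1628, 1439.5 and 1176 CPM in Ctrl, 1174, 1248 and 814 CPM in cKO and 592, 1266 and 1264 CPM in dcKO, with median log2 fold changes of −0.46 in cKO and −0.18 in dcKO. Only dcKO replicate 1 and cKO replicate 3 stood below the remaining embryos. DESeq2 called 0 in cKO (edgeR 0, 1 at an unadjusted p under 0.05) and 0 in dcKO (edgeR 0, 0 at an unadjusted p under 0.05). Cajal-Retzius markers, the neurons that the hem supplies (11 of 11 tested, Reln the most abundant) summed to 292, 245 and 269.9 CPM in Ctrl, 335, 342 and 282 CPM in cKO and 268, 233 and 259 CPM in dcKO, with median log2 fold changes of 0.41 in cKO and 0.18 in dcKO. Ctrl overlapped with each mutant, and the 3 dcKO sums were all lower than the 3 cKO sums. The DESeq2 calls were Ndnf higher in cKO and 0 in dcKO (edgeR 0, 1 at an unadjusted p under 0.05). Markers of the thalamic eminence and diencephalon (4 of 8 tested, Lhx9 the most abundant) summed to 60.9, 54.9 and 51.4 CPM in Ctrl, 50.6, 58.8 and 62.7 CPM in cKO and 67.7, 72.7 and 52.9 CPM in dcKO, with median log2 fold changes of −0.31 in cKO and −0.50 in dcKO. Levels overlapped between the genotypes. By DESeq2 the calls were 0 in cKO (edgeR 0, 0 at an unadjusted p under 0.05) and 0 in dcKO (edgeR 0, 2 at an unadjusted p under 0.05). Antihem markers, from the opposite border of the cortex (5 of 6 tested, Sfrp2 the most abundant) summed to 64.7, 57.7 and 48.0 CPM in Ctrl, 47.3, 51.8 and 38.0 CPM in cKO and 35.7, 49.3 and 60.7 CPM in dcKO, with median log2 fold changes of 0.26 in cKO and −0.10 in dcKO. Ctrl overlapped with both mutants. DESeq2 called Dbx1 higher in cKO and Dbx1 higher in dcKO. Endothelial markers (7 of 7 tested, Kdr the most abundant) summed to 238, 290.4 and 304 CPM in Ctrl, 286, 285 and 202 CPM in cKO and 136, 137 and 147 CPM in dcKO, with median log2 fold changes of −0.23 in cKO and −1.19 in dcKO. The dcKO embryos lay below all others. The DESeq2 calls were 0 in cKO (edgeR 0, 0 at an unadjusted p under 0.05) and Cdh5, Esam and Tie1 lower in dcKO. Erythroid markers (9 of 9 tested, Hbb-y the most abundant) summed to 10551, 11807 and 7910.0 CPM in Ctrl, 14213, 9488 and 12701 CPM in cKO and 6679.9, 4650.2 and 6526 CPM in dcKO, with median log2 fold changes of 0.04 in cKO and −1.06 in dcKO. Again the dcKO embryos were the lowest. By DESeq2 the calls were 0 in cKO (edgeR 0, 2 at an unadjusted p under 0.05) and Hba-a1, Hba-a2, Hba-x and Hbb-bt lower in dcKO. Markers of microglia and macrophages (8 of 8 tested, Csf1r the most abundant) summed to 41.0, 49.1 and 41.3 CPM in Ctrl, 63.5, 86.1 and 41.8 CPM in cKO and 25.2, 14.5 and 33.9 CPM in dcKO, with median log2 fold changes of 0.50 in cKO and −0.97 in dcKO. The dcKO embryos were below all others here too. DESeq2 called 0 in cKO (edgeR 0, 1 at an unadjusted p under 0.05) and 0 in dcKO (edgeR 0, 2 at an unadjusted p under 0.05).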
